A study of Mus musculus with 7 samples.

Results

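The genes described here encode the contractile apparatus of striated muscle and the proteins that anchor and fuel it. The list holds 45 genes chosen by symbol, among them myosins, actins, troponins, titin and Z-disc proteins, calcium store proteins and muscle-type metabolic enzymes. Of these, 44 had a probe set with 1 gene symbol in the platform's annotation, out of 22180 genes measured in all. Mybph, a relative of myosin-binding protein C, had none and was not analysed here. Where a gene had several probe sets, the one with the highest mean was used. Membership was set by symbol, with no cutoff on a measured value, but the list was written with earlier results of these data known.

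The cells were C2C12, an established line of mouse skeletal myoblasts that divides in serum and can be driven to fuse into contractile myotubes. There were 3 siG9a arrays from cells given an siRNA against G9a (gene Ehmt2), 2 siGLP arrays from cells given an siRNA against GLP (gene Ehmt1), and 2 Control arrays from cells given a control siRNA. G9a and GLP are related enzymes that methylate a particular lysine of histone H3, where methylation marks silent chromatin. The study asked whether they act differently in myoblasts. All groups shared the same line, a medium with 15% fetal bovine serum and a transfection with 0.2 µmol of siRNA per dish; no differentiation step, time after transfection or siRNA sequence is given in the sources used here. The samples were bulk RNA of a line treated with siRNA, so fewer cells of a kind and less RNA per cell cannot be told apart, and off-target effects were not tested.

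A sarcomere is the repeating unit of a muscle fibre. Thick filaments of myosin pull on thin filaments of actin when calcium, sensed by the troponin complex, moves tropomyosin off the myosin-binding sites. Titin and nebulin set the lengths of the filaments, the Z-disc ties neighbouring sarcomeres together, and the M-band holds the thick filaments in register. Dividing myoblasts express few of these genes strongly; most are switched on by MyoD family factors, MEF2 and SRF as the cells leave the cycle and fuse. Many of the genes belong to families with fast, slow, cardiac and developmental members.

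Signal was log2, from RMA, on which 1 unit is a doubling. Ehmt2 had 6.31, 6.14 and 5.99 in siG9a and 7.37 on both siGLP arrays, against 7.56 and 7.46 in Control, and fell in siG9a by 1.37 (SE 0.10; limma, Benjamini-Hochberg adjusted p = 0.0308). Ehmt1 had 6.74, 6.60 and 6.53 in siG9a and 5.73 and 6.13 in siGLP, against 6.71 and 6.73 in Control. Its difference in siGLP was -0.79 (SE 0.14), which did not pass over all genes (limma adjusted p = 0.197). Across the listed genes, which are no independent replicates of each other, Pearson's r between 2 arrays of a group was 0.990 to 0.996, and between arrays of different groups 0.983 to 0.994. The labels do not say whether replicates came from separate cultures, so the p-values reflect the spread of these arrays alone, which may be technical, and the number of arrays limits the precision. All 10 markers of C2C12 myoblasts, Des among them, stood above a dim level, the 95th percentile of smell and pheromone receptor genes, on every array. Their mean log2 signal was 8.28 to 8.40 in siG9a and 8.38 to 8.40 in siGLP, against 8.55 to 8.57 in Control. In each knockdown 8 of the 10 lay below Control and 0 passed over all genes, with 5 lower in siG9a and 4 lower in siGLP at an unadjusted limma p under 0.05 (4.57% and 4.13% of all genes). Of 10 markers of differentiated myotubes, 6 of which are listed genes, 8 stood above that level on every array, with a mean of 5.40 to 5.54 in siG9a and 5.24 to 5.29 in siGLP, against 5.48 to 5.59 in Control. None of these passed. At an unadjusted p under 0.05, 1 was lower in siG9a (4.57% of all genes) and 2 were lower in siGLP (4.13%). In siGLP minus siG9a 3 were lower (6.57% of all genes). These lists' part in the results was not tested.

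The promoters of 6 listed genes are printed, 4 for the size of their difference in a knockdown (Tnnt1, Actc1, Ldb3 and Myh4) and 2 for their high signal (Des and Eno3). Each window runs from 250 bases before to 50 bases after a transcription start in RefSeq on build GRCm38.p6, given 5′ to 3′ on the gene's own strand. The windows are chr7:4515926-4516225 (minus strand) for Tnnt1, chr2:114052826-114053125 (minus) for Actc1, chr14:34588632-34588931 (minus; the first of 2 listed starts) for Ldb3, chr11:67237562-67237861 (plus) for Myh4, chr1:75360042-75360341 (plus) for Des and chr11:70656926-70657225 (plus) for Eno3. Capitals mark the E-box forms CAGCTG and CACCTG, to which MyoD family dimers can bind, and the CArG box, the binding sequence of SRF. The MEF2 box was searched in a strict form only, CTA and TAG with 4 letters between them that are each A or T. The CArG box was likewise searched only as CC and GG with 6 such letters between them. Looser forms of either box, and other E-box forms, were not searched. Both strands were searched for each.
Tnnt1: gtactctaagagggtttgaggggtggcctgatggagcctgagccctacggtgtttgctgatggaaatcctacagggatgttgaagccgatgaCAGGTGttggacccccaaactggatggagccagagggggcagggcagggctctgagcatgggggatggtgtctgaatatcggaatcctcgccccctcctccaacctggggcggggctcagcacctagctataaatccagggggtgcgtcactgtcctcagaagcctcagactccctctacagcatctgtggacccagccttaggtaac
Actc1: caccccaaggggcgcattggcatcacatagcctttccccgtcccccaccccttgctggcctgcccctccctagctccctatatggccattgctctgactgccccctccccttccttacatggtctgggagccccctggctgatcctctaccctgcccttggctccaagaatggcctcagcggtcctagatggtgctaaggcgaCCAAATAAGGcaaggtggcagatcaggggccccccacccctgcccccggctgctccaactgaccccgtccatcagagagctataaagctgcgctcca
Ldb3: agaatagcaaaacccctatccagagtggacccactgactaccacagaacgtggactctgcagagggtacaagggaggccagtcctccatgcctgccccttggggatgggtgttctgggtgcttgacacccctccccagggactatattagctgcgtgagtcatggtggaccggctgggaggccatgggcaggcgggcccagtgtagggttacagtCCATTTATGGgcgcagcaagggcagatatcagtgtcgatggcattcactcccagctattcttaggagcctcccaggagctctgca
Myh4: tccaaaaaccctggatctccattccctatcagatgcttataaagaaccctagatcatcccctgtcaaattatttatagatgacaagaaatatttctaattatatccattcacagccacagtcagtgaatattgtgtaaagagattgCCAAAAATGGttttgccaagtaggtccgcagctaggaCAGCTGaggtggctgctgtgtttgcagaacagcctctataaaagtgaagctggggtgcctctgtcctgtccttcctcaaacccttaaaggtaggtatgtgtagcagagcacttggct
Des: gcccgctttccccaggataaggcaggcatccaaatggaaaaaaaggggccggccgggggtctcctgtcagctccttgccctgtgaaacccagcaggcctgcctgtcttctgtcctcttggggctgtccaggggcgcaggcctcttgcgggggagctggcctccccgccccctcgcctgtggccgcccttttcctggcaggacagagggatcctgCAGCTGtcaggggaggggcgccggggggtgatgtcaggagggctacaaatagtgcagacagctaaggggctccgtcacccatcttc
Eno3: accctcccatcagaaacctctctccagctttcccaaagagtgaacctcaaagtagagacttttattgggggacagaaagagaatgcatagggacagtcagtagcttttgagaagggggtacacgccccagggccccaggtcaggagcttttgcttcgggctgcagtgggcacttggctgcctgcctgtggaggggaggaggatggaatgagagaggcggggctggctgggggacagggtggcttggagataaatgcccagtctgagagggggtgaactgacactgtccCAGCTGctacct
No marked motif overlapped another in these windows. The Tnnt1 window held 1 CACCTG form, read as CAGGTG on the printed strand, and no CArG box. Actc1 and Ldb3 each held 1 CArG box and neither E-box form, Myh4 held 1 CArG box and 1 CAGCTG, and Des and Eno3 each held 1 CAGCTG. A RefSeq window was found for 36 of the 45 listed genes. The shares of all here are over 27025 RefSeq genes with a window, not only those measured on the array. The first listed start of each gene was used. CAGCTG occurred in 18 of these 36 windows and in 16.1% of the 27025, and CACCTG occurred in 11 (30.6%) and in 20.0% of all. A CArG box occurred in 6 (16.7%), those of Acta1, Actc1, Ldb3, Myh4, Myl3 and Myom1, and in 1.57% of all. The strict MEF2 box occurred in 2, Myoz2 and Ttn, and in 0.566% of all. The 6 genes with a CArG box did not share a direction in siG9a minus Control: Actc1 stood at -0.61, Myl3 at -0.22, Acta1 at -0.07, Myom1 at 0.00, Myh4 at 0.43 and Ldb3 at 0.61 on the log2 scale. Of these, only Acta1 and Ldb3 exceeded the dim level on every array. Actc1 exceeded it on 1 array, and Myl3, Myom1 and Myh4 on none, so signal from their transcripts is not shown. A match is a run of letters and no evidence of binding.

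RMA gives every probe set a value, expressed or not. The 1394 genes for smell and pheromone receptors (symbols starting Olfr or Vmn), which a muscle line is not expected to express, served as a guide to dim signal, and the 95th percentile of their values lay between 4.52 and 4.62 on the 7 arrays. Of the 44 listed genes, 19 exceeded it on every array, 5 on some arrays (Myh7, Myl2, Myom2, Actc1 and Ckm) and 20 on none. Among all genes 52.9% exceeded it on every array. The dim genes were not spread evenly over the roles: none of the 6 myosin heavy chains exceeded the receptor level on every array, while all 7 troponins did. Levels of different probe sets depend also on their probes, so an order of signal between genes is not an order of transcript amounts.

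**Figure D1:**
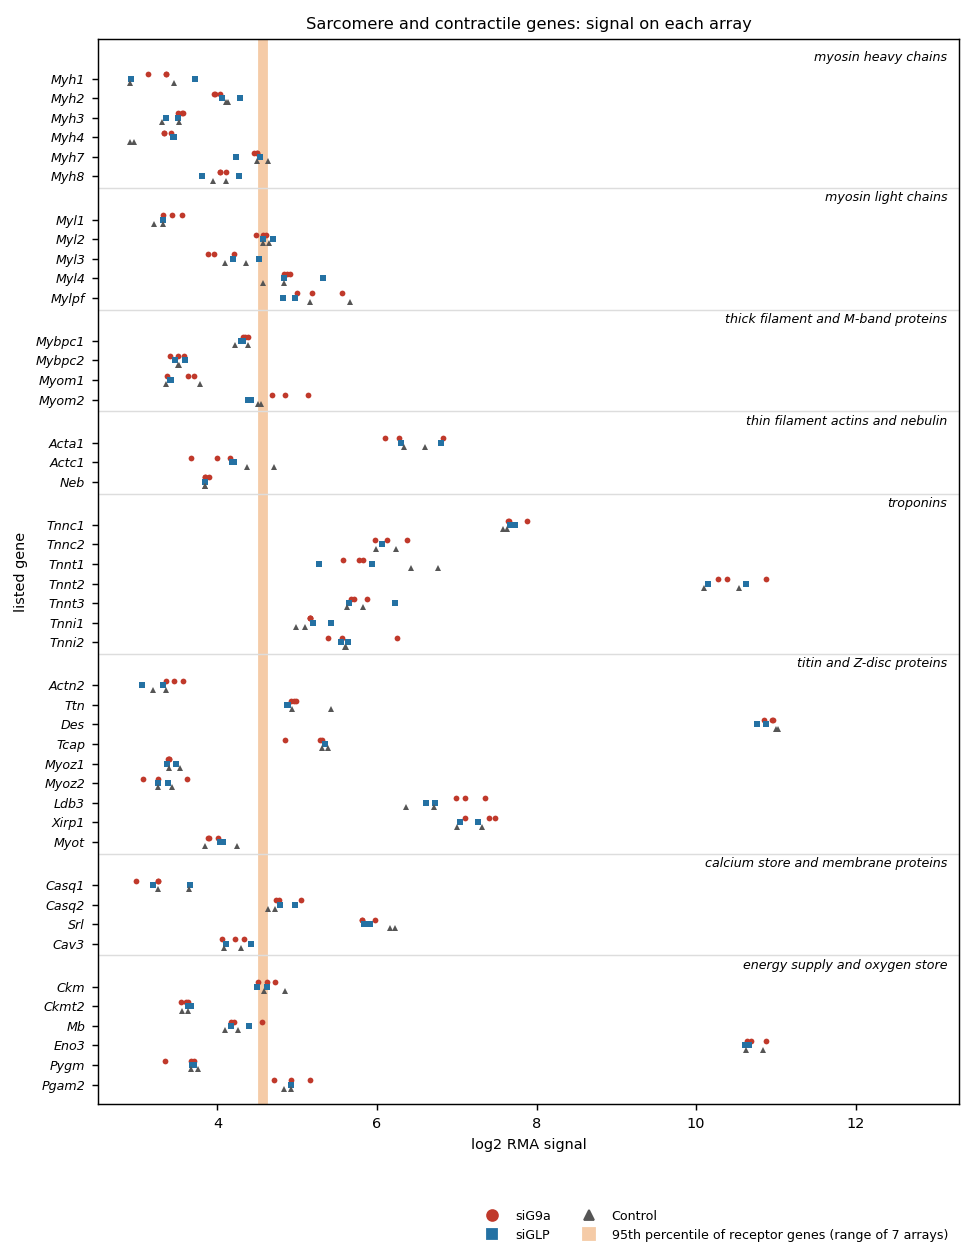
Log2 RMA signal (horizontal) of each of the 44 measured genes (rows, grouped by role) on each array, with circles for siG9a, squares for siGLP and triangles for Control. The band is the 95th percentile of the receptor genes over the 7 arrays (4.52 to 4.62). All 7 troponins lie to its right, and the myosin heavy chains other than Myh7 lie to its left on every array.

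No listed gene passed a limma adjusted p of 0.05 over all genes in any comparison. In siG9a minus Control, 0 of 44 passed, where 0.0271% of all genes did (0.00451% higher and 0.0225% lower). An unadjusted p under 0.05 was found for 6 (13.6%, against 10.5% of all genes), 3 higher and 3 lower, where 5.95% and 4.57% of all genes were. In siGLP minus Control, 0 passed (0.00451% of all genes), and 5 had an unadjusted p under 0.05 (11.4%, against 8.63%), 2 higher and 3 lower (4.51% and 4.13% of all genes). In siGLP minus siG9a, 0 passed (0.234% of all genes; 0.135% higher and 0.0992% lower), and 4 had an unadjusted p under 0.05 (9.09%, against 12.4%), 1 higher and 3 lower (5.87% and 6.57% of all genes). These shares lie near those of all genes. The count was also 0 in each comparison with trended, robust moderation, which called more genes overall.

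Taken over all 44, dim genes included, the listed genes were balanced around 0. In siG9a 24 of 44 lay above Control and 20 below, where 51.7% and 48.0% of all genes did, and the median log2 difference was 0.01 (quartiles -0.10 and 0.13; all genes 0.0052, quartiles -0.08 and 0.09). In siGLP 23 lay above Control, 20 below and Neb at 0, where 50.5% and 49.0% of all genes lay above and below, with a median of 0.0085 (quartiles -0.09 and 0.08; all genes 0.0015). In siGLP minus siG9a 21 were above 0 and 23 below (48.6% and 51.1% of all genes), with a median of -0.01 (all genes -0.0037). Of the 19 above the receptor level on every array, 7 were above 0 and 12 below in this comparison, with a median of -0.08. Against Control these 19 had 11 above and 8 below in siG9a, and 9 above and 10 below in siGLP. Under 16 alternatives the listed median in siGLP minus siG9a ranged from -0.094 to -0.0037. In 14 of the 16 it moved by less than 0.045, the pooled SD within groups of the listed genes' median level on an array. Listed differences ranged between -0.88 and 0.61 in siG9a and between -0.996 and 0.52 in siGLP. Both knockdowns are set against the same Control arrays, so their values are not independent of each other.

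**Figure D2:**
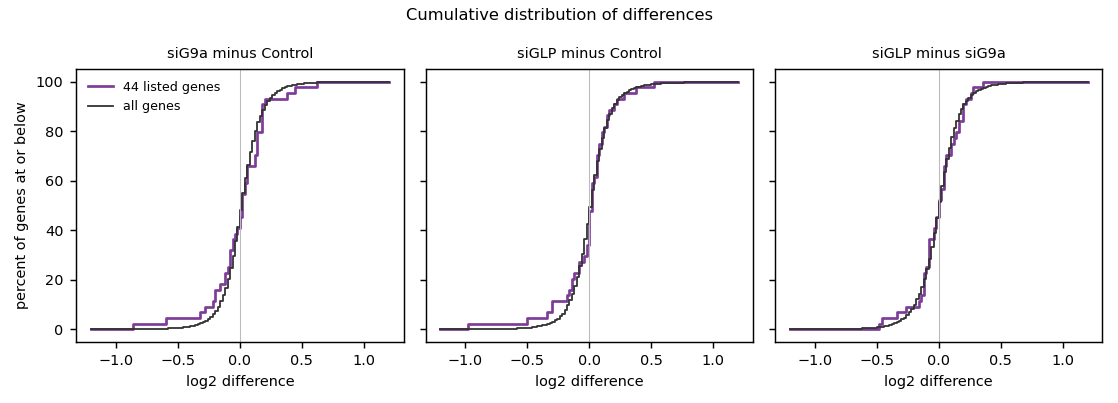
Cumulative percent of genes (vertical) at or below each log2 difference (horizontal) in the 3 comparisons (each knockdown minus Control, then siGLP minus siG9a), with the 44 listed genes in purple and all 22180 genes in black. The listed genes' medians are 0.01, 0.0085 and -0.01, and the lowest steps in the first 2 panels are Tnnt1, at -0.88 and -0.996.

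The troponins sense calcium on the thin filament. Tnnt1, the slow skeletal troponin T that ties the complex to tropomyosin, had the largest difference of any listed gene in either knockdown. Its log2 signal was 5.77, 5.83 and 5.58 in siG9a and 5.28 and 5.93 in siGLP, against 6.43 and 6.77 in Control. Every knockdown array lay below both Control arrays. The difference was -0.88 in siG9a (SE 0.20), or 54.5% of Control, and -0.996 in siGLP (SE 0.22), or 50.1% of Control, with limma adjusted p of 0.205 and 0.262. The siGLP arrays differed from each other (SD 0.47) more than the siG9a arrays did (SD 0.13), and siGLP minus siG9a was -0.12 (SE 0.20; adjusted p = 0.853).

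The other troponin T genes did not share this difference. Tnnt2, the cardiac form that embryonic skeletal muscle also uses, was far above the receptor level, with 10.87, 10.27 and 10.39 in siG9a and 10.63 and 10.15 in siGLP, against 10.54 and 10.10 in Control. Its groups overlapped, and its differences were 0.19 (SE 0.23) and 0.07 (SE 0.25). Tnnt3, the fast form, had 5.68, 5.71 and 5.87 in siG9a and 6.23 and 5.64 in siGLP, against 5.63 and 5.83 in Control, also with overlap.

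Of the troponin I genes, which hold the complex in its inhibiting state, the slow form Tnni1 read 5.16 on each of the siG9a arrays and 5.43 and 5.20 in siGLP, against 4.98 and 5.10 in Control. All its knockdown arrays lay above Control. Its difference was 0.27 in siGLP (SE 0.09; limma adjusted p = 0.454) and 0.12 in siG9a (SE 0.08; adjusted p = 0.655), so the slow forms of troponin I and troponin T stood on opposite sides of Control. The Tnni1 difference was 0.16 in siGLP without siGLP 1 and 0.06 in siG9a without Control 1. Tnni2, the fast form, read 6.25, 5.56 and 5.38 in siG9a, where the first array stands apart, and 5.63 and 5.55 in siGLP, against 5.60 and 5.61 in Control. Troponin C, the calcium-binding subunit, is slow and cardiac in Tnnc1 and fast in Tnnc2. Tnnc1 had 7.65, 7.66 and 7.88 in siG9a and 7.73 and 7.67 in siGLP, against 7.59 and 7.63 in Control. Tnnc2 had 6.38, 6.13 and 5.98 in siG9a and 6.07 on both siGLP arrays, against 6.23 and 5.99 in Control. Their differences lay between -0.04 and 0.12. In RefSeq's gene order Tnnt1 is next to Tnni3, the cardiac troponin I gene, while Tnni1 and Tnnt2 flank Lad1, and Tnni2 and Tnnt3 flank Lsp1. Tnni3 stood at -0.11 in siG9a (limma adjusted p = 0.789) and 0.09 in siGLP (adjusted p = 0.909).

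**Figure D3:**
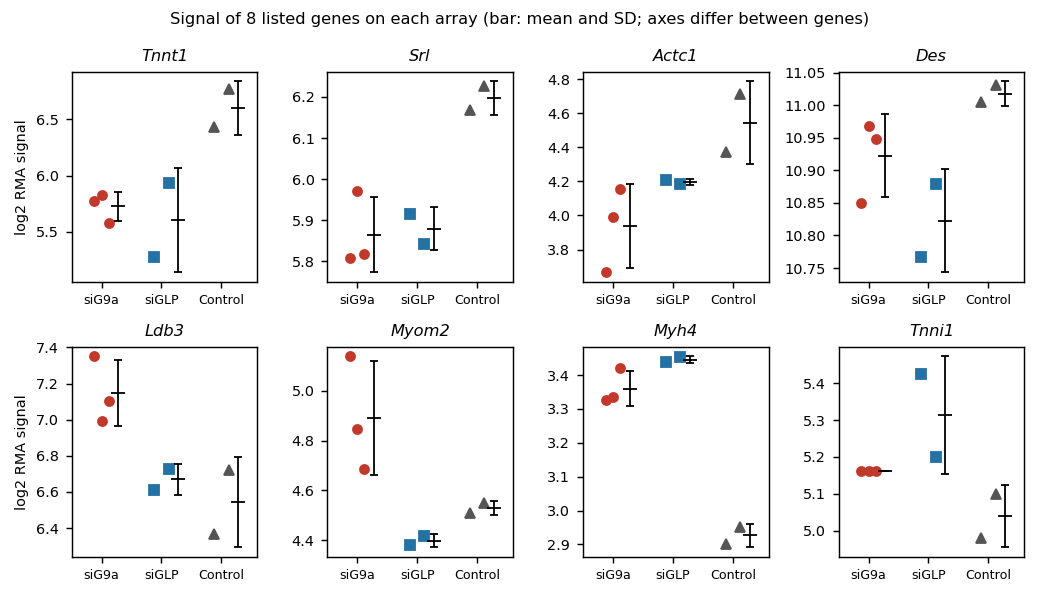
Log2 RMA signal (vertical, scaled per panel) of 8 listed genes on each siG9a, siGLP and Control array; bars give the mean and SD of each group. Tnnt1, Srl, Actc1 and Des lie below Control on every knockdown array, Myh4 and Tnni1 above it, Ldb3 above it on the siG9a arrays and overlapping it in siGLP, and Myom2 above it in siG9a and below it in siGLP.

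Myosin heavy chains are the motors, and each fibre type uses its own. Their genes Myh3 (embryonic), Myh2, Myh1 and Myh4 (adult fast) and Myh8 (neonatal) are consecutive on mouse chromosome 11, and Myh7 (slow and cardiac) is on chromosome 14. Myh4 had 3.33, 3.33 and 3.42 in siG9a and 3.44 and 3.45 in siGLP, against 2.90 and 2.95 in Control. All its knockdown arrays lay above Control, by 0.43 in siG9a (SE 0.06; limma adjusted p = 0.106) and 0.52 in siGLP (SE 0.07; adjusted p = 0.134). These were the smallest p-values of any listed gene against Control. Yet every value lay below the receptor level, so signal from Myh4 transcript is not shown on any array.

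The cluster neighbours of Myh4 gave no such difference, with Myh3 at 0.13 and 0.02, Myh2 at -0.13 and 0.05, Myh1 at 0.11 and 0.14 and Myh8 at 0.03 and 0.01 in siG9a and siGLP. Myh7 stood at -0.08 and -0.17. Paralogs of this family are close in sequence, and cross-hybridisation between them was not tested.

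Myosin light chains bind the neck of the motor. Mylpf, the fast regulatory chain, had 5.57, 4.99 and 5.19 in siG9a and 4.97 and 4.82 in siGLP, against 5.15 and 5.67 in Control. Both siGLP arrays lay below all the others (-0.52 against Control, SE 0.22; limma adjusted p = 0.588), while the siG9a arrays overlapped Control. Myl4, the embryonic and atrial essential chain, lay on the other side of Control in siGLP on average, with 4.84 and 5.33 there and 4.84, 4.91 and 4.87 in siG9a, against 4.58 and 4.84 in Control (0.38 in siGLP, SE 0.16; limma adjusted p = 0.596). Myl3, the slow and ventricular essential chain, had 4.52 and 4.20 in siGLP against 3.88, 4.21 and 3.96 in siG9a (0.35, SE 0.14; limma adjusted p = 0.395), with 4.10 and 4.36 in Control. Its groups overlapped, its values all lay below the receptor level, and without siGLP 1 the difference was 0.19. Myl1 and Myl2 differed from Control by -0.06 to 0.18.

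Among proteins that organise the thick filament, Myom2, a fast-fibre crosslinker of the M-band, separated the knockdowns. It had 4.38 and 4.42 in siGLP and 5.14, 4.85 and 4.69 in siG9a, with 4.51 and 4.55 in Control. All siGLP arrays lay below all siG9a arrays, with a difference of -0.49 (SE 0.13; limma adjusted p = 0.192), and Control lay between them. Only the siG9a arrays exceeded the receptor level. The difference from Control was 0.36 in siG9a (SE 0.13; adjusted p = 0.384) and -0.13 in siGLP (SE 0.14; adjusted p = 0.858), and without siG9a 1 that in siG9a was 0.24. Mybpc1 and Mybpc2, the slow and fast forms of myosin-binding protein C, and Myom1 were below the receptor level on all arrays and differed from Control by -0.16 to 0.05.

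Of the thin filament genes, Actc1, the cardiac actin that developing skeletal muscle also makes, had 3.67, 3.99 and 4.15 in siG9a and 4.21 and 4.18 in siGLP, against 4.37 and 4.72 in Control. All knockdown arrays lay below Control, by 0.61 in siG9a (SE 0.16; limma adjusted p = 0.251) and 0.35 in siGLP (SE 0.17; adjusted p = 0.671), and only Control 2 exceeded the receptor level. Without Control 2 the siGLP difference was -0.18. Acta1, the adult skeletal actin, had 6.83, 6.10 and 6.27 in siG9a and 6.80 and 6.30 in siGLP, against 6.34 and 6.60 in Control, with overlap in every comparison. Neb, which encodes the giant thin-filament ruler nebulin, had the same value, 3.85, on 6 of 7 arrays.

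Z-disc genes gave one of the larger differences above Control. Ldb3 encodes cypher, a PDZ and LIM protein that binds alpha-actinin at the Z-disc. It had 7.35, 6.99 and 7.10 in siG9a and 6.61 and 6.73 in siGLP, against 6.37 and 6.72 in Control. The siG9a arrays lay above all others, and the siGLP arrays overlapped Control. The difference was 0.61 in siG9a (SE 0.14; 1.52-fold; limma adjusted p = 0.208), 0.13 in siGLP (SE 0.15; adjusted p = 0.878) and -0.48 in siGLP minus siG9a (SE 0.14; adjusted p = 0.241). Actn2, the sarcomeric alpha-actinin, had 3.32 and 3.05 in siGLP against 3.45, 3.56 and 3.35 in siG9a, a difference of -0.27 (SE 0.11; limma adjusted p = 0.384), with 3.19 and 3.36 in Control, all below the receptor level. Without siGLP 2 the difference was -0.13, and without siGLP 1 it was -0.41.

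Des encodes desmin, the intermediate filament that links Z-discs and is already made in myoblasts. Its probe set was among the brightest of the list, which is no measure of transcript amount against other genes, with 10.85, 10.97 and 10.95 in siG9a and 10.77 and 10.88 in siGLP, against 11.00 and 11.03 in Control. Every knockdown array lay below Control, though by little: -0.10 in siG9a (SE 0.07; limma adjusted p = 0.683) and -0.20 in siGLP (SE 0.08; adjusted p = 0.538). Xirp1, an actin-binding protein of intercalated discs and myotendinous junctions, had 7.40, 7.10 and 7.48 in siG9a and 7.04 and 7.27 in siGLP, against 7.01 and 7.32 in Control, with overlap. Ttn, the titin spring, read 4.97, 4.98 and 4.92 in siG9a and 4.88 and 4.87 in siGLP, against 4.94 and 5.42 in Control, where Control 2 alone was high. Tcap, the cap of titin at the Z-disc, and Myoz1, Myoz2 and Myot, which bind alpha-actinin or filamin there, differed from Control by -0.20 to 0.01.

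Srl encodes sarcalumenin, a calcium-binding protein of the sarcoplasmic reticulum. It had 5.81, 5.97 and 5.82 in siG9a and 5.92 and 5.84 in siGLP, against 6.17 and 6.23 in Control. All knockdown arrays lay below both Control arrays, by 0.33 in siG9a (SE 0.08; limma adjusted p = 0.204) and 0.32 in siGLP (SE 0.08; adjusted p = 0.346), and siGLP minus siG9a was 0.01 (SE 0.08). Casq2, the slow and cardiac calsequestrin that buffers calcium in the same store, read 5.05, 4.74 and 4.77 in siG9a and 4.97 and 4.78 in siGLP, against 4.63 and 4.72 in Control, so all knockdown arrays were above Control (0.17 and 0.20; limma adjusted p = 0.645 and 0.744). Casq1, the fast form, and Cav3, the muscle caveolin, were below the receptor level on every array and overlapped Control; the largest of their differences was -0.29, for Casq1 in siG9a.

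The arrays of all 6 metabolic genes overlapped Control in both knockdowns. Eno3, the muscle enolase of glycolysis, had 10.88, 10.68 and 10.64 in siG9a and 10.66 and 10.61 in siGLP, against 10.84 and 10.63 in Control (-0.0026 and -0.10; limma adjusted p = 0.998 and 0.865). Ckm and Ckmt2, the cytosolic and mitochondrial creatine kinases, Mb, the oxygen store myoglobin, Pygm, which breaks down glycogen, and Pgam2, another glycolytic enzyme, differed from Control by -0.15 to 0.13.

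**Figure D4:**
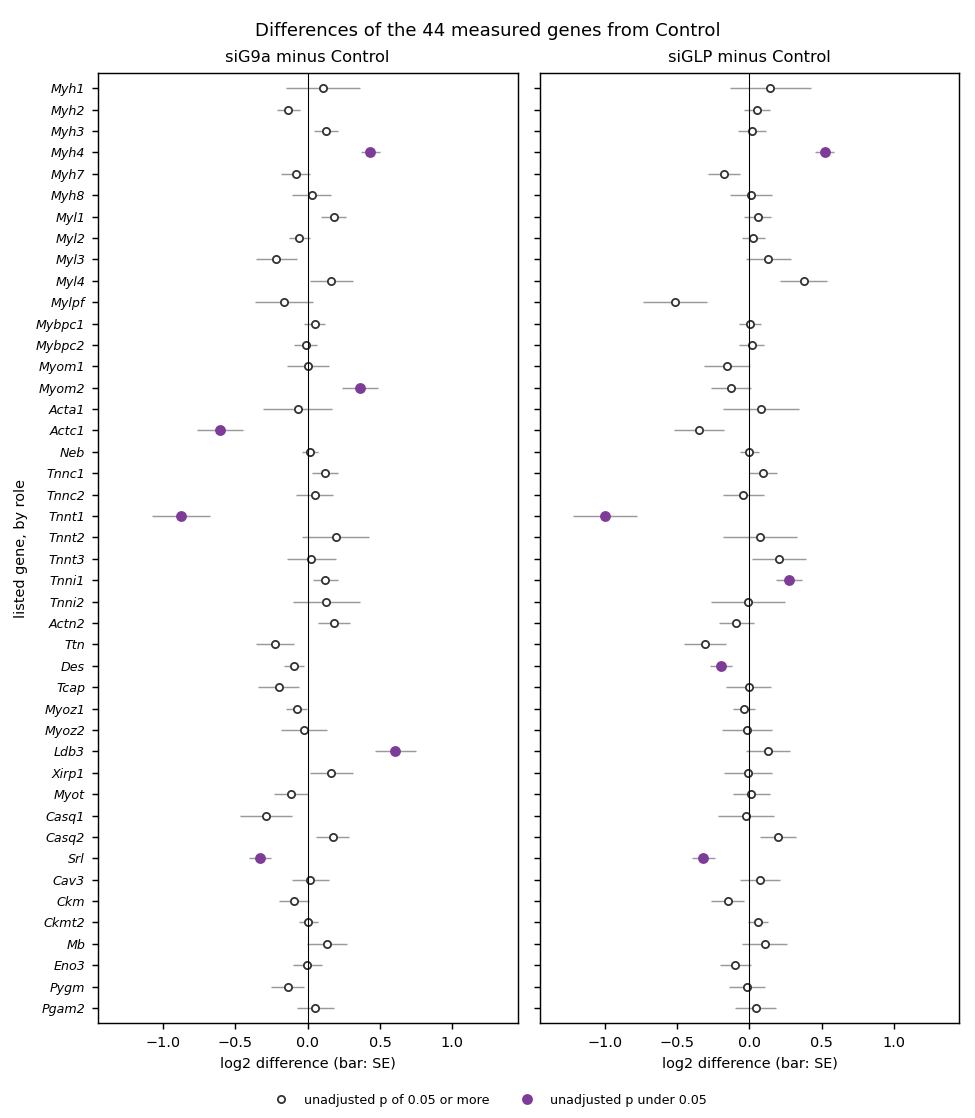
Log2 difference from Control (horizontal; bars are SE) of the 44 measured genes (rows, by role) in siG9a (left) and siGLP (right). Filled points have an unadjusted limma p under 0.05, which 6 genes had in siG9a and 5 in siGLP; none passed after adjustment over all genes.

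Counted by array overlap, 6 listed genes had every siG9a array above Control (13.6%; 14.0% of all genes), namely Myh4, Myom2, Tnnc1, Tnni1, Ldb3 and Casq2, and 5 had every siG9a array below it (11.4%; 11.7% of all genes), namely Myh2, Actc1, Tnnt1, Des and Srl. In siGLP 4 lay wholly above (9.09%; 17.4% of all genes), namely Myh4, Tnnc1, Tnni1 and Casq2, and 7 wholly below (15.9%; 16.9%), namely Mylpf, Myom2, Actc1, Tnnt1, Ttn, Des and Srl. Between the knockdowns, 6 lay wholly higher in siGLP than in siG9a (13.6%; 12.1% of all genes) and 5 wholly lower (11.4%; 14.2%). Above both Control arrays in both knockdowns were 4 genes (9.09%; 6.47% of all genes), and below them in both were 4 (9.09%; 5.43%), Actc1, Tnnt1, Des and Srl. Myom2 alone had siG9a wholly above Control and siGLP wholly below it (2.27%; 1.42% of all genes), and no listed gene had the opposite pattern (1.06% of all genes). Most of these shares lay near those among all genes; the count wholly above Control in siGLP was the furthest below.

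Sorted by fibre type rather than by place in the sarcomere, a sorting chosen after the values were known, the listed genes showed no common direction. Of 11 adult fast genes, 7 lay above Control in siG9a and 6 in siGLP, where 51.7% and 50.5% of all genes did. Of 9 slow genes, 4 and 6 lay above it, with Tnnt1 lowest and Casq2 (siG9a) or Tnni1 (siGLP) highest. Of 5 embryonic, neonatal or cardiac genes, 4 lay above it in each knockdown, and Actc1 was the exception in both. The receptor level was exceeded on every array by 4 fast, 4 slow and 2 embryonic, neonatal or cardiac genes. On no array was it exceeded by 6, 3 and 2 of them, so these counts rest in part on genes whose signal is not shown. None of these 25 genes passed over all genes.

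Every gene has a highest and a lowest array, so the counts per array are given beside the shares among all genes above the receptor level. Among the 19 genes above the receptor level, siG9a 1 was the highest of the 7 arrays for 7 (36.8%), namely Acta1, Tnnc2, Tnnt2, Tnni2, Ldb3, Casq2 and Eno3, and Control 2 for 5 (26.3%), namely Mylpf, Tnnt1, Ttn, Des and Srl. Control 1 was the lowest for 7 (36.8%). Over the 11726 genes above that level on all arrays, siG9a 1 was the highest for 18.4%, Control 2 for 12.95%, and Control 1 the lowest for 16.8%. Without siG9a 1, the siG9a minus Control difference of Ldb3 was 0.50 (adjusted p = 0.337), and that of Tnnc2 turned to -0.06. The part of these arrays in other results was not tested beyond leaving each out.

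**Figure D5:**
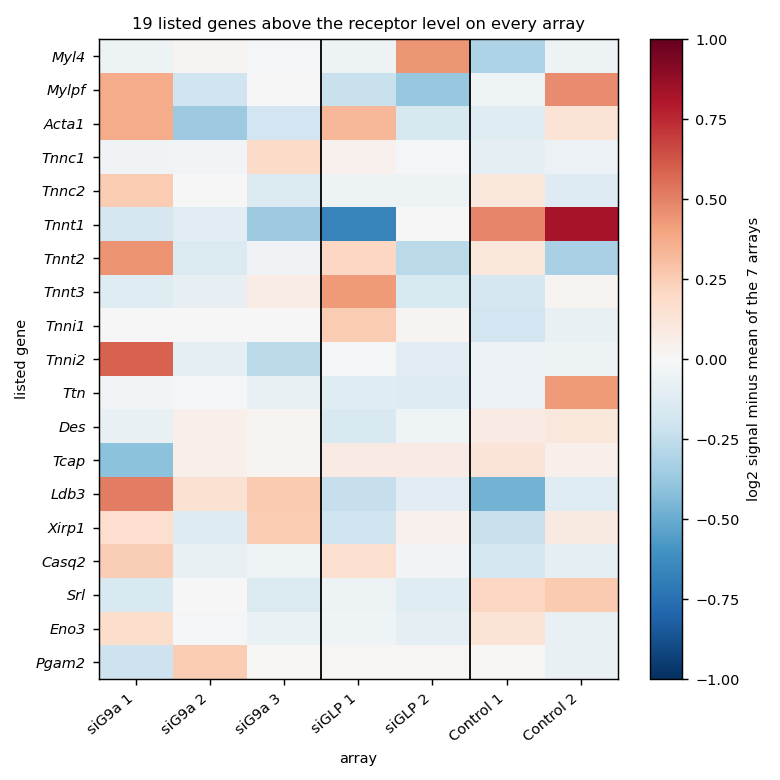
Log2 signal minus the mean of the 7 arrays (colour, red above and blue below) for the 19 listed genes above the receptor level on every array (rows) on each siG9a, siGLP and Control array (columns). Tnnt1 is red on both Control arrays and blue or near 0 on the others, and siG9a 1 is the highest array for 7 genes.

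Genes of the same apparatus outside the list were looked at next, from lists written with earlier results of these data known. Of 32 thin filament and Z-disc genes, 0 passed over all genes in either knockdown. At an unadjusted p under 0.05, 2 were higher and 3 lower in siG9a (5.95% and 4.57% of all genes). In siGLP 0 were higher and 2 lower (4.51% and 4.13% of all genes). Of the 32, 14 lay above Control and 18 below in each, where 51.7% (siG9a) and 50.5% (siGLP) of all genes lay above. The medians were -0.01 in siG9a and -0.02 in siGLP. The smallest p-values in siG9a belonged to Synpo2l, a Z-disc actin-binding protein (-0.47), Actn3, the fast-fibre alpha-actinin (-0.48), the PDZ and LIM gene Pdlim5 (0.22) and Fhl1 (-0.22); the smallest limma adjusted p among them was 0.257. In siGLP they belonged to Fhl3 (-0.20), Fhl1 (-0.20), Pdlim3 (-0.75) and the tropomyosin gene Tpm3 (-0.22). Of 14 further thick filament and M-band genes, 0 passed. With an unadjusted p under 0.05, 1 was higher and 2 lower in siG9a (5.95% and 4.57% of all genes), and 2 were higher in siGLP (4.51%). Above Control lay 5 in siG9a and 10 in siGLP (51.7% and 50.5% of all genes). Trim54, a ubiquitin ligase of the M-band and microtubules, stood at 0.60 in siG9a (SE 0.16; limma adjusted p = 0.272) and 1.01 in siGLP (SE 0.18; adjusted p = 0.197), and its relative Trim55 at 0.45 in siGLP (adjusted p = 0.508).

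Of 14 chaperones and assembly factors, 0 passed in either knockdown. At an unadjusted p under 0.05, 1 was higher in siG9a (5.95% of all genes). In siGLP 1 was higher and 1 lower (4.51% and 4.13% of all genes). Above Control lay 7 in siG9a and 8 in siGLP (51.7% and 50.5% of all genes). The small heat shock protein gene Hspb8, a partner of Bag3 in clearing damaged Z-disc proteins, stood at 0.56 in siGLP (SE 0.09; limma adjusted p = 0.194) and the kelch-like gene Klhl31 at -0.44 (SE 0.10; adjusted p = 0.266). Hspb8 was also higher in siGLP than in siG9a on every array, by 0.54 (SE 0.09; adjusted p = 0.0763), and did not pass. Of 12 non-muscle counterparts, which form the contractile cytoskeleton of dividing cells, 0 passed. With an unadjusted p under 0.05, 1 was higher and 1 lower in siG9a (5.95% and 4.57% of all genes), and 2 were lower in siGLP (4.13%). Above Control lay 6 in siG9a and 2 in siGLP (51.7% and 50.5% of all genes). Myh10, a non-muscle myosin heavy chain, stood at -0.56 in siG9a (SE 0.11; limma adjusted p = 0.157). Myl12b, a regulatory light chain of non-muscle myosin, stood at 0.39 in siG9a (SE 0.12; adjusted p = 0.334) and -0.22 in siGLP (SE 0.13; adjusted p = 0.733), and siGLP minus siG9a was -0.62 (SE 0.12; adjusted p = 0.112).

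Of 11 measured muscle regulators, 0 passed in either knockdown. At an unadjusted p under 0.05, 2 were lower in siG9a (4.57% of all genes), Myod1 and Pax7. Pax7 stood at -0.36 there (limma adjusted p = 0.213). In siGLP 1 was lower (4.13% of all genes), Mef2a, at -0.29 (limma adjusted p = 0.316). Mef2a was also lower in siGLP than in siG9a, by 0.36 (limma adjusted p = 0.0969). Myod1, which switches on many listed genes, had 7.04, 6.99 and 6.82 in siG9a and 7.53 and 7.73 in siGLP, against 7.46 and 7.80 in Control (limma adjusted p = 0.146 in siG9a). Its siG9a arrays lay below all others. Myog, the factor of early differentiation, had 5.12, 5.57 and 5.20 in siG9a and 4.97 and 5.19 in siGLP, against 5.27 and 5.80 in Control (adjusted p = 0.708 and 0.63). Of 8 cardiomyocyte markers 4 exceeded the receptor level on every array, and 0 passed in any comparison. At an unadjusted p under 0.05, 1 was lower in siGLP than in Control (4.13% of all genes) and than in siG9a (6.57%). None differed in siG9a minus Control at that p. Of 6 smooth muscle markers all exceeded the receptor level. In siGLP minus siG9a 2 passed, Cnn1 (1.23) and Tagln (0.78), where 0.234% of all genes did (limma adjusted p = 0.0409 and 0.0478). The list mean was 7.94 to 7.98 in siGLP and 7.59 to 7.74 in siG9a, and 7.88 to 7.97 in Control. All 6 lay below Control in siG9a on average, Cnn1 by 0.84 and Tagln by 0.67 (limma adjusted p = 0.138 and 0.108), while Cnn1 stood at 0.39 and Tagln at 0.12 in siGLP minus Control (adjusted p = 0.559 and 0.826). Of 7 leukocyte and endothelial markers, Cd68 alone exceeded it on every array, at 0.62 in siG9a and 0.54 in siGLP relative to Control (limma adjusted p = 0.133 and 0.262), while Ptprc, Kdr and Emcn exceeded it on no array. Of 6 fat and bone markers 1 exceeded it on every array. The part of any of these cells or factors in the listed genes' values was not tested.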

How the data were processed

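RNA from 7 C2C12 samples was hybridised to single-colour Affymetrix whole transcript arrays, 1 per sample, from 100 ng of total RNA per the labels' protocols. The deposited table holds log2 values for 33649 probe sets; the authors used RMA and Partek, per the submitters' processing notes, without versions. RMA corrects background, quantile-normalizes and summarises probes, which compresses dim values. The log2 scale was taken from the values' range. The genome build behind the array annotation was not given in the sources used here. A single symbol was given to 23521 probe sets, of which 23328 were updated by gene number to RefSeq GRCm38.p6, leaving 22180 genes. All 7 arrays were fitted with limma 3.58.1 in R 4.3.3 (lmFit, eBayes, 1 mean per group, 6.89 degrees of freedom with moderation, two-sided, Benjamini-Hochberg over all genes, no filter), tested on simulated data. Values on every array are given for listed genes with an unadjusted p under 0.05 in any comparison, the 10 with the highest mean and a few others that complete a family, these last chosen after their values were seen. For companion lists up to 4 genes with the smallest p were eligible to be named. The members and lists were chosen with earlier results of these data known. Alternatives changed the probe set, filter, normalization, moderation, fit and block, and left out each array.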

Additional observations from a re-analysis of the deposited data

Results flagged for a closer look

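Myom2 was the listed gene whose knockdown arrays lay on opposite sides of Control. Every siGLP array lay below both Control arrays and every siG9a array above them, a pattern that 1.42% of all genes shared. The siGLP side was small, -0.13 from Control (SE 0.14, limma adjusted p = 0.858). Only the siG9a arrays exceeded the receptor level. Its siGLP minus siG9a difference was -0.49 (limma adjusted p = 0.192), which did not pass, and it was -0.59 to -0.37 with 1 array left out.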

How the results depend on the processing

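No listed gene that was tested passed under any alternative in any comparison; the filters on level tested 31, 16 and 22 of the 44, never Myh4, and the other alternatives all 44. The number of all genes past the threshold moved. In siG9a minus Control it was 6, and 30 without genes below the 30th percentile of level, 148 without those below the median, 16 after quantile normalization, 100 with trended, robust moderation, 71 without genes below the receptor level (an alternative chosen after seeing the data), and 0 with only the 2 groups compared in the fit or with the replicate block. In siGLP minus Control it was 1, and 21 above the median level, 23 with trended, robust moderation, 3 above the receptor level and 0 with the 2 groups alone or the replicate block. In siGLP minus siG9a it was 52, and 171, 350 and 302 with the 3 filters, 304 with trended, robust moderation and 0 with the 2 groups alone or the replicate block. With 1 array left out the counts were 0 to 0, 0 to 1 and 0 to 0. Of 16 listed genes followed, 12, 8 and 10 kept their direction throughout in the 3 comparisons, among them Tnnt1, Srl, Actc1, Myh4 and Des against Control. Those that turned with 1 array left out ranged in siG9a minus Control Eno3 -0.11 to 0.10, Tnnt2 -0.025 to 0.41, Acta1 -0.28 to 0.083, Tnnc2 -0.072 to 0.17; in siGLP minus Control Myl3 -0.028 to 0.29, Ldb3 -0.049 to 0.30, Eno3 -0.20 to 0.0074, Acta1 -0.16 to 0.33, Tnnc2 -0.16 to 0.078, Tnnt2 -0.17 to 0.31, Xirp1 -0.17 to 0.15, Actn2 -0.23 to 0.046; in siGLP minus siG9a Srl -0.023 to 0.067, Tnnt2 -0.36 to 0.12, Tnnc2 -0.18 to 0.016, Acta1 -0.097 to 0.40, Tnnc1 -0.068 to 0.047, Tnnt1 -0.45 to 0.21. Eno3 also turned in siG9a minus Control, to 0.014 after quantile normalization, 0.0099 after cyclic loess and 0.046 with the replicate block. In siGLP minus siG9a Tnnc1 turned to 9e-04 after quantile normalization and 0.047 with the replicate block, and Srl to -0.0098 with it; the cause was not tested. Replicate numbers were not taken as pairs, since the labels state no pairing. Deviations of same-numbered arrays correlated at 0.0047 to 0.17, which does not settle whether they were paired. In a group of 2 arrays the deviations mirror each other, so the values for Control with siGLP (0.10 for both replicate numbers) are not separate. Differently numbered arrays were not compared. With the replicate block the siG9a minus Control difference of Tnnt2 was 0.26 (limma unadjusted p = 0.0232, adjusted p = 0.434). Without the block it was 0.19 (limma unadjusted p = 0.429). Signal over background limits the 20 genes never above the receptor level.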

Other observations

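For 3 listed genes a further probe set was on the array and was not used in the comparisons. The second Myh8 probe set read 2.82 to 2.94 on the knockdown arrays, against 2.90 and 3.03 in Control. The second Ckm probe set read 3.98 to 4.20 on the knockdown arrays, against 4.13 and 4.14 in Control. A probe set shared by Des and the predicted gene Gm15179 read 4.15 to 4.44 on the knockdown arrays, against 4.37 and 4.34 in Control. All of these lay below the receptor level on every array, also for Des, whose own probe set was among the brightest of the list.

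The deposited values repeated exactly on 3 or more arrays in 9 of the 44 listed genes (20.5%) and in 21.4% of all genes. Neb had 1 value on 6 arrays, Myl1 and Pgam2 on 4, and Myh7, Myl4, Tnni1, Myoz1, Casq1 and Ckmt2 on 3. For Tnni1 the arrays that repeat are all those of siG9a, so its spread there is 0.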
